A study of Mus musculus with 24 samples.

Results

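Coatomer (COPI) and COPII vesicle coat subunits were examined in the ovaries of 2 mouse lines, the high fertility line FL1 and its control line DUKsi. The genes were Copa, Copb1, Copb2, Copg1, Cope, Copz1 and Arcn1, the 7 subunits of coatomer, and Sec13, Sec23a and Sec24d of the COPII coat, 10 genes of the 12393 that the array measured with a probe set of their own. All probe sets annotated to these symbols were taken, which gave 13 of the 22626 probe sets tested. None of the 13 was annotated to a further gene. The genes were taken by function but selected on measured values of these lines, since the signals of the Copb2 probe sets were known to disagree. The FL1 and DUKsi signals of the 13 probe sets are therefore given as a description, with no p-value, and nothing is read from how many of them passed a threshold.

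FL1 descended from an outbred population made by crossing inbred and outbred lines, and had been selected to generation 130 for an index of litter size and litter weight at birth in females with a first litter. DUKsi came from the same genetic pool without that selection and was inbred by full-sib mating, so selection and breeding history cannot be told apart in the comparison. Ovaries came from untreated virgin females, 6 to 9 weeks old and in metestrus, the stage after ovulation. Ovary RNA of 30 animals per line was combined, in equal amounts per animal, into 6 pools per line. Each pool was hybridized to 2 MOE 430A arrays, 24 arrays in all, and a pool's value here is the mean MAS5 signal of its 2 arrays. The replicate is the pool, in which the differences between animals are averaged.

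Membrane and secreted proteins leave the endoplasmic reticulum in vesicles shaped by COPII, whose assembly starts with the GTPase Sar1, and escaped proteins return from the Golgi in vesicles coated by COPI, which is recruited by Arf1. Each coat has an inner layer that binds cargo and an outer cage. In the ovary the route carries hormones such as inhibin from granulosa cells and the zona pellucida proteins of the oocyte, and coat genes are used in every cell.

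Among the coat genes, 12 of the 13 probe sets had overlapping signals in FL1 and DUKsi, and their fitted differences lay between -0.20 and 0.17 on the log2 scale (FL1 over DUKsi), with standard errors of 0.06 to 0.18. The exception was the second probe set of Copb2, the beta-prime subunit of coatomer, whose mean signal was 8.69 times higher in DUKsi than in FL1, while the first probe set of the same gene differed by -0.10 ± 0.09 (SE, 6 pools per line). The count of coat probe sets past an adjusted p of 0.01 was 1 of 13, lower in FL1, beside 3.38% of all probe sets in either direction and 1.55% lower in FL1. The genes were selected in this same contrast, so the count is no evidence about them.

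Across the array, the trimmed mean signal was 500.1 on every array and the array medians lay between 212 and 244.5. The ratio of 3 prime to 5 prime beta-actin signal, a measure of RNA and labelling quality, was 1.67 ± 0.423 (SD, n = 6) in FL1 and 1.27 ± 0.0522 (SD, n = 6) in DUKsi, with the highest value, 2.45, in FL1 pool 3 (two-sided exact permutation p = 0.00216, the smallest the design allows). The same ratio for Gapdh was 1.53 ± 0.420 (SD, n = 6) in FL1 and 1.28 ± 0.146 (SD, n = 6) in DUKsi, also highest in FL1 pool 3, and the lines overlapped (two-sided exact permutation p = 0.203). DUKsi pool 4 had a summed signal of 7432 for 8 oviduct and surface epithelium genes. The other DUKsi pools had 1309.55 to 1939.65 and the FL1 pools 2243.65 to 2653. Of the markers listed here for ovarian cells, Cyp11a1 (luteal list) read 3804 to 12469 over the 12 pools. Inhba (granulosa list) read 3580.35 to 7111 and Zp3 (oocyte list) 1190.6 to 2208, where 20% of all signals lay below 48.4.

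4 promoter windows are shown first because they hold the same 8-letter string, TGACGTGG, the unfolded protein response element known to be bound by factors such as Xbp1. The windows run from 250 bases before to 50 bases after a RefSeq start on GRCm38.p6 and are written 5′ to 3′ on the gene's strand, with TGACGTGG or its reverse complement CCACGTCA, and CCGGAAG (the core known for ETS factors) or CTTCCGG, in capitals. A window was listed for 9 of the 10 genes. The Copb2 window lies at chr9:98563481-98563780, plus strand.
Copb2: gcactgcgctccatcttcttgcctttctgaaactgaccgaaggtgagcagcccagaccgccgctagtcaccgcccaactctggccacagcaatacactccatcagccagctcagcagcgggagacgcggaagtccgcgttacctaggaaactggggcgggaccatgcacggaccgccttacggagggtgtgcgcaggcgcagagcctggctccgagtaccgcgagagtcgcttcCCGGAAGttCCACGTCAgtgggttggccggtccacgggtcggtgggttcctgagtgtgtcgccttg
The Copb1 window lies at chr7:114254631-114254930, minus strand.
Copb1: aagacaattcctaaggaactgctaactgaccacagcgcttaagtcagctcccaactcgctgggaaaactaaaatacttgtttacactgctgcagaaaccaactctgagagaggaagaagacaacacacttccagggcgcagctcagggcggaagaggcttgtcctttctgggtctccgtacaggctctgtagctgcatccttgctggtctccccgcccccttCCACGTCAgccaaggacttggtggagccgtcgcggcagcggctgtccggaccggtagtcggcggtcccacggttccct
The Sec23a window lies at chr12:59011968-59012267, minus strand.
Sec23a: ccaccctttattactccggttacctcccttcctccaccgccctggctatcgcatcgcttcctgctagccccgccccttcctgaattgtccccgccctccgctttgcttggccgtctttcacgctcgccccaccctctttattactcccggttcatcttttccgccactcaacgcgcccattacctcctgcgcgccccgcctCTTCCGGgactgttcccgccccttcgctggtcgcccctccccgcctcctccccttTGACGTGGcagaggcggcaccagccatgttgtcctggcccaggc
The Sec24d window lies at chr3:123267246-123267545, plus strand, and starts from a transcript within the gene's annotated span.
Sec24d: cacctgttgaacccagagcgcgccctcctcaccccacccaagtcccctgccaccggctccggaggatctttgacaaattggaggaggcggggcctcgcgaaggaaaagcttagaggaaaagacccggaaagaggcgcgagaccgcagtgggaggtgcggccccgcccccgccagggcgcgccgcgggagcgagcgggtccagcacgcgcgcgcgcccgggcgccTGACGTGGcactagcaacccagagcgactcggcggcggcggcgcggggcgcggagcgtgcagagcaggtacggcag

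TGACGTGG was thus present, on either strand, in 4 of 9 coat windows, while 222 of all 32851 windows (0.676%) and 103 of 9882 measured genes with a window (1.04%) held it. In Copb2 it spanned positions -7 to 1 around the start, in Copb1 -28 to -21, in Sec24d -26 to -19 and in Sec23a 7 to 14. CCGGAAG was present in Copb2, Cope, Sec13 and Sec23a, 4 of 9 windows, beside 8.86% of all windows and 16.4% of measured genes. It was as frequent among genes of COPII assembly at exit sites (4 of 9) and nearly so among SNAREs and tethers (9 of 24). In Copb2, at positions -16 to -10, it ended 2 bases ahead of the other string. The ER stress elements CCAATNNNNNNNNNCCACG and ATTGGNCCACG were in 0 of the 9 windows, and in 0.119% and 0.0365% of all windows. Among translocon and folding genes the first was in 5 of 27 (Calr, Canx, Hsp90b1, Hspa5 and Pdia6). The second was in 1 of 27 of these (Dnajb11) and in 1 of 14 ER stress regulators (Herpud1). Elsewhere on the route TGACGTGG was in 2 of 9 genes of Arf GTPases and regulators (Arf1 and Gbf1), 1 of 9 of exit sites (Sec16b), 1 of 18 cargo receptors (Kdelr3) and 2 of 24 SNAREs and tethers (Scfd1 and Stx5a). It was in 0 of 8 other coat subunits, 0 of 23 clathrin and adaptor genes, 0 of 27 translocon and folding genes and 0 of 14 ER stress regulators. Letters in a window are a description and show no binding. The signals of the 4 genes that shared the string are given below, and a link between the string and the lines was not tested.

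Copb2 encodes the beta-prime subunit, which with alpha forms the cage of coatomer and binds the dilysine signals of retrieved membrane proteins. The gene lies on chromosome 9 from 98563731 to 98588375. Probe set 1452102_at read 1482 at the lowest, 2047 at the median and 2274 at the highest of the 6 FL1 pools, and 1984, 2096 and 2267 in DUKsi. FL1 pools 3 and 6 read below every DUKsi pool and FL1 pool 1 just above them, and the other values of the lines were interleaved.

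The other Copb2 probe set, 1456175_a_at, read 39.2 at the lowest, 78.7 at the median and 98.45 at the highest in FL1. In DUKsi it read 449.75 at the lowest, 614 at the median and 917 at the highest. Every FL1 pool lay below every DUKsi pool, and 4.62% of all probe sets had no overlap between the lines. The suffix _a_at marks a probe set whose probes match several transcripts of 1 gene. The means were 74.6 ± 21.1 and 648 ± 185 (SD, n = 6 pools each), a difference of -3.13 ± 0.22 (SE) on the log2 scale.

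The disagreement was present on single arrays. Signals of 1456175_a_at ran from 36.3 to 125.1 over the 12 FL1 arrays and from 433.5 to 959 over the 12 DUKsi arrays, while 1452102_at ran from 1375 to 2297 and from 1962 to 2295. 20% of the array's signals lay below 48.4, and 1 FL1 pool read under that level for 1456175_a_at, so the FL1 level of this probe set was close to the dim end of the array. The SD between arrays of a pool was 0.31 on the log2 scale for 1456175_a_at and 0.07 for 1452102_at.

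**Figure D1:**
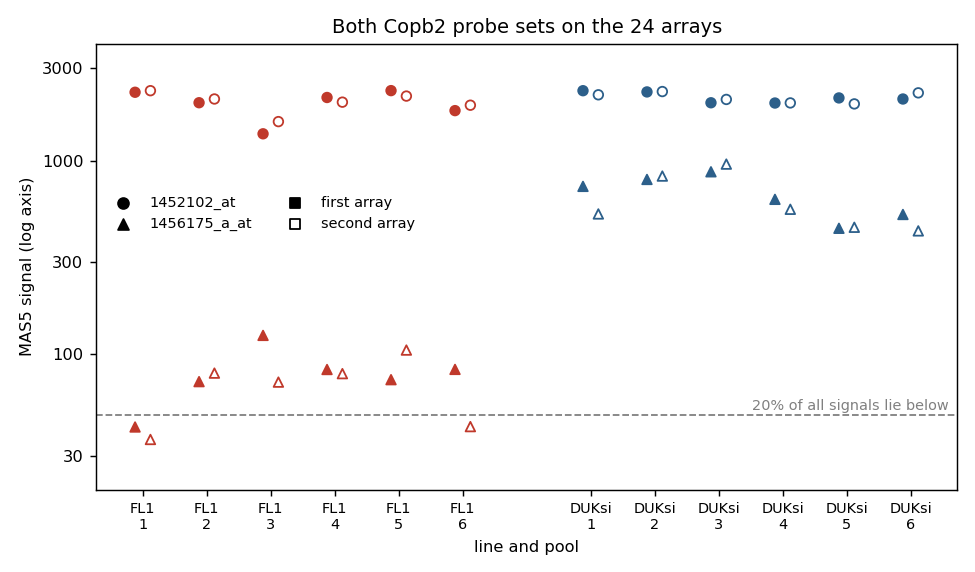
MAS5 signal (log axis) of both Copb2 probe sets on the 24 arrays, by line and pool, with filled symbols for the first and open symbols for the second array of a pool. The circles (1452102_at) lie between 1375 and 2297 in both lines, while the triangles (1456175_a_at) lie between 36.3 and 125.1 in FL1 and between 433.5 and 959 in DUKsi.

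Between the probe sets of Copb2 the fitted differences were 3.03 apart on the log2 scale. Of the 4956 genes with several probe sets, 5 had a distance at least as large, and the median distance was 0.26. Besides Copb2 these were H2-D1 (6.07), Gsn (5.79), Pdxdc1 (3.93) and Golt1b (3.15), named after their values were seen. The probe sets of Copg1 were 0.04 apart and those of Arcn1 0.03. Which Copb2 transcripts each probe set reads was not tested, and the probe sequences were not used here.

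Copa encodes the alpha subunit, the partner of beta-prime in the cage, on chromosome 1 from 172082529 to 172122332. Its probe set 1415706_at read 3442 at the lowest, 3878 at the median and 4483 at the highest in FL1, against 3463, 3841 and 4025 in DUKsi. The ranges overlapped and the difference was 0.04 ± 0.07 (SE). Cope, the epsilon subunit, which holds the alpha subunit's end and completes the cage, lies on chromosome 8 from 70302767 to 70313002. With 1416384_a_at it read 1054, 1239.7 and 1451 at the lowest, median and highest in FL1, and 1204, 1276 and 1511 in DUKsi. FL1 pool 3 alone lay below all DUKsi pools, and the difference was -0.09 ± 0.08 (SE).

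The inner layer of coatomer, which is related to the clathrin adaptors, is built from the beta, gamma, delta and zeta subunits. Copb1, the beta subunit on chromosome 7 from 114215559 to 114254680, read 1313, 1406 and 1477 at the lowest, median and highest in FL1 and 1249, 1386 and 1436 in DUKsi with 1423301_at. FL1 had 3 pools above the highest DUKsi pool and none below the lowest, and the difference was 0.05 ± 0.06 (SE).

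Copg1 is the gamma subunit, which binds Arf1 and cargo receptors, and lies on chromosome 6 from 87887819 to 87913595. Probe set 1415670_at read 727, 896 and 1053 at the lowest, median and highest in FL1 against 732, 853 and 906 in DUKsi. Probe set 1416017_at read 613, 646 and 755 in FL1 against 531, 595 and 713 in DUKsi. Both had overlapping lines and means slightly higher in FL1, by 0.08 ± 0.09 and 0.12 ± 0.09 (SE).

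Copz1, the small zeta subunit that pairs with gamma, lies on chromosome 15 from 103272888 to 103299865. With 1451825_a_at it read 916, 1140.5 and 1247 at the lowest, median and highest in FL1 against 966, 1307 and 1489 in DUKsi. The DUKsi range enclosed all but 1 FL1 pool, and the difference was -0.14 ± 0.11 (SE).

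Arcn1, the delta subunit, lies on chromosome 9 from 44742143 to 44767808. Probe set 1423743_at read 353, 658 and 832 at the lowest, median and highest in FL1 and 572, 701 and 917 in DUKsi, a difference of -0.20 ± 0.18 (SE). Probe set 1451089_a_at read 1616, 2322 and 2598 in FL1 and 2204, 2479.95 and 2646 in DUKsi, a difference of -0.17 ± 0.10 (SE). The lines overlapped with both, but FL1 pool 3 was the lowest of all pools with the first and the highest FL1 pool with the other. Without FL1 pool 3 the differences were -0.03 and -0.22.

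Sec13, a cage subunit of COPII that also serves in the nuclear pore, lies on chromosome 6 from 113728052 to 113740681. With 1416241_at it read 514, 586 and 714 at the lowest, median and highest in FL1 and 590.3, 679 and 699.8 in DUKsi. FL1 had 3 pools below every DUKsi pool and 1 pool above them all, and the difference was -0.17 ± 0.08 (SE).

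Sec23a, the inner subunit that stimulates the GTPase activity of Sar1, lies on chromosome 12 from 58958384 to 59012017. With 1423347_at it read 712, 1081 and 1316 at the lowest, median and highest in FL1 and 893, 1059 and 1161 in DUKsi. The FL1 range enclosed the DUKsi range and the difference was 0.01 ± 0.12 (SE). Sec24d, an inner subunit that binds export signals of cargo, lies on chromosome 3 from 123264801 to 123365641. With 1426972_at it read 678, 920.25 and 986 in FL1 and 670.15, 795 and 895 in DUKsi. FL1 had 4 pools above every DUKsi pool, yet its lowest pool lay near the lowest of DUKsi, and the difference was 0.17 ± 0.10 (SE).

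**Figure D2:**
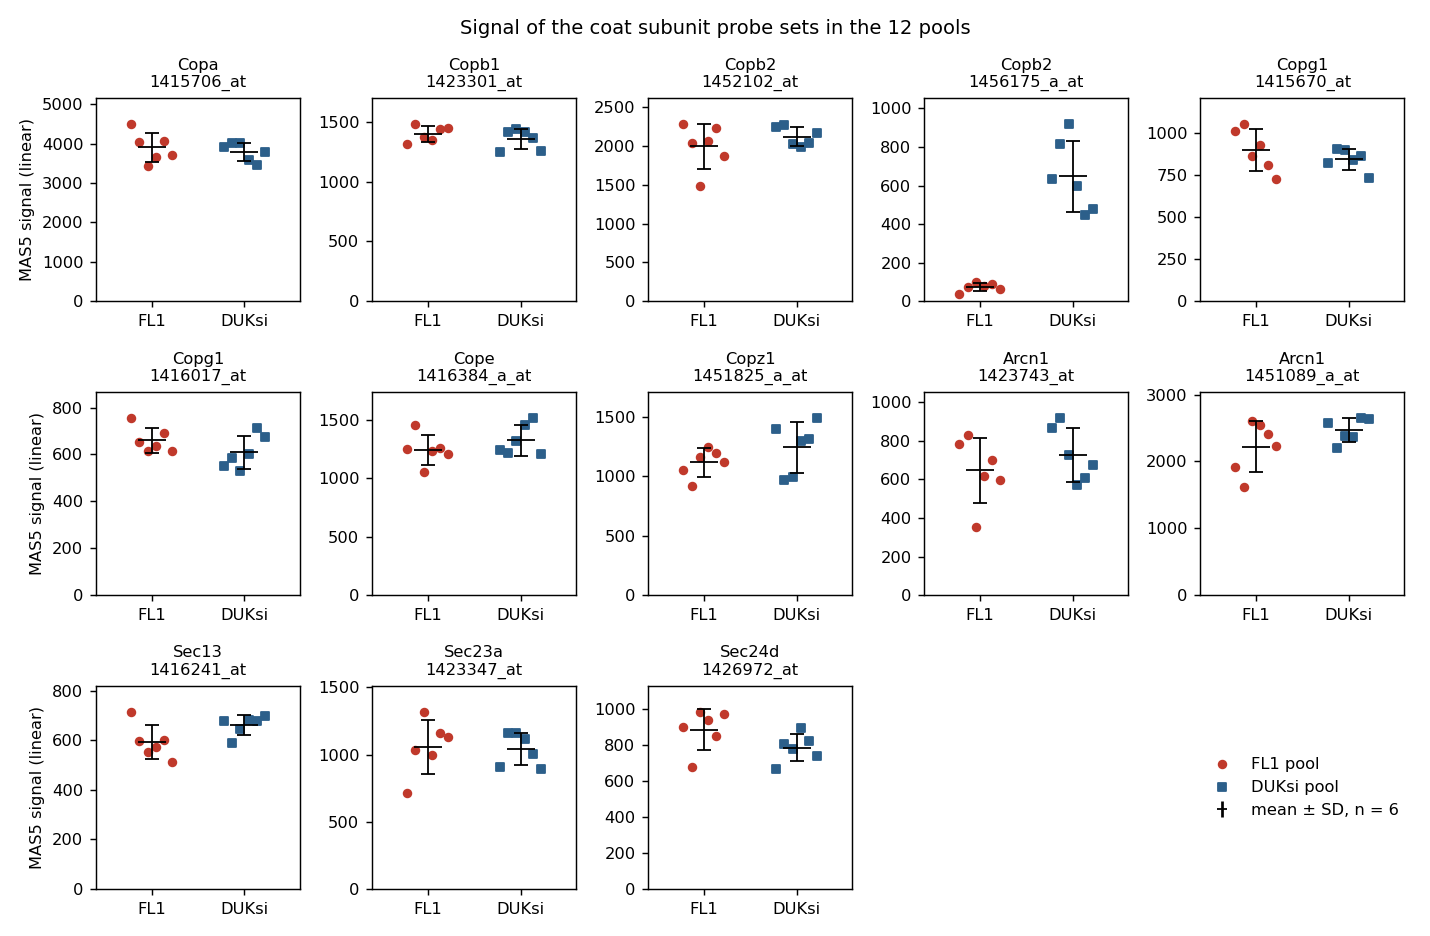
MAS5 signal (linear axes from 0, a scale of its own in each panel) of the 13 coat probe sets in 6 FL1 pools (circles) and 6 DUKsi pools (squares), with mean ± SD. The lines overlap in 12 panels, and in the panel of Copb2 1456175_a_at all FL1 pools (39.2 to 98.45) lie below all DUKsi pools (449.75 to 917).

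Taking the brightest probe set of each gene, the median difference of the 10 coat genes was -0.04 on the log2 scale, with single genes from -0.17 to 0.17. Over all probe sets the median was -0.07, and over the brighter part of the array (11313 probe sets) the median was -0.03 with quartiles of -0.16 and 0.10. The summed signal of the 10 genes ran from 14823 to 16019 in FL1 and from 15532 to 15708.5 in DUKsi, overlapping. In whole ovary RNA, fewer cells of a type and less RNA per cell cannot be told apart.

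**Figure D3:**
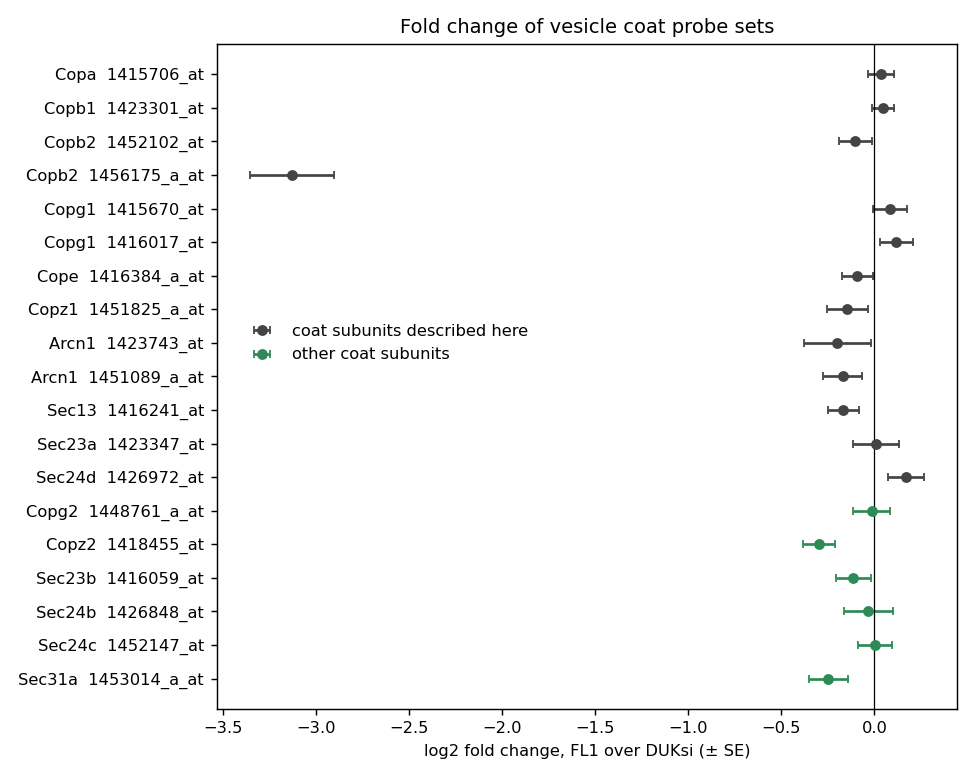
Difference between the lines (log2 fold change, FL1 over DUKsi, with SE) of the 13 coat probe sets and of 6 other coat subunits, 1 row per probe set. All points but Copb2 1456175_a_at (-3.13) lie between -0.30 and 0.17.

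Spread between pools was small beside the level, and mostly larger in FL1. For the 12 probe sets with overlapping lines the SD of log2 signals between pools ran from 0.07 to 0.44 in FL1 and from 0.08 to 0.27 in DUKsi, and the SD between the arrays of a pool from 0.07 to 0.20. Of all 13 probe sets, 10 varied more between FL1 pools than between DUKsi pools. Bright probe sets in general varied more in FL1 too, with a median SD of 0.19 in FL1 and 0.15 in DUKsi. The spread between pools exceeded that between arrays of a pool in 10 of 13 for FL1 and in 9 of 13 for DUKsi.

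FL1 pool 3, the pool with the beta-actin ratio of 2.45, held 9 of the 26 extreme values of FL1, being lowest for 5 probe sets and highest for 4. FL1 pools 1 and 2 held 7 each, and pool 5 held 0. In DUKsi the counts per pool ran from 2 to 7. With the beta-actin ratio as a covariate, Copa moved from 0.04 to 0.16, Copb2 1452102_at from -0.10 to 0.12, Arcn1 1423743_at from -0.20 to 0.27, Sec23a from 0.01 to -0.25 and Arcn1 1451089_a_at from -0.17 to -0.36, all values of the difference on the log2 scale. Copb2 1456175_a_at was -3.45 with the covariate and -3.24 without FL1 pool 3 and DUKsi pool 4. The ratio was 1.322 to 2.454 in FL1 and 1.180 to 1.317 in DUKsi, with no overlap. The covariate and the line can therefore not be told apart, and these values are not differences corrected for RNA quality.

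The signals of coat subunits showed no common rise and fall from pool to pool. Deviations of log2 signals from the mean of the line were correlated over the 12 pools for each of the 45 pairs of coat genes, points which share their array, scaling and RNA. The median Pearson r was -0.16, from -0.80 to 0.76, and 20 pairs were above 0. Without FL1 pool 3 the median was -0.11. Among the 21 pairs within COPI the median was -0.08. Probe sets of the same gene were no closer, with an r of -0.34 for Copb2, -0.64 for Arcn1 and 0.07 for Copg1, and of -0.07, -0.56 and 0.04 without FL1 pool 3. A measure in which probe sets of the same gene do not vary together cannot show whether transcripts of different subunits do.

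**Figure D4:**
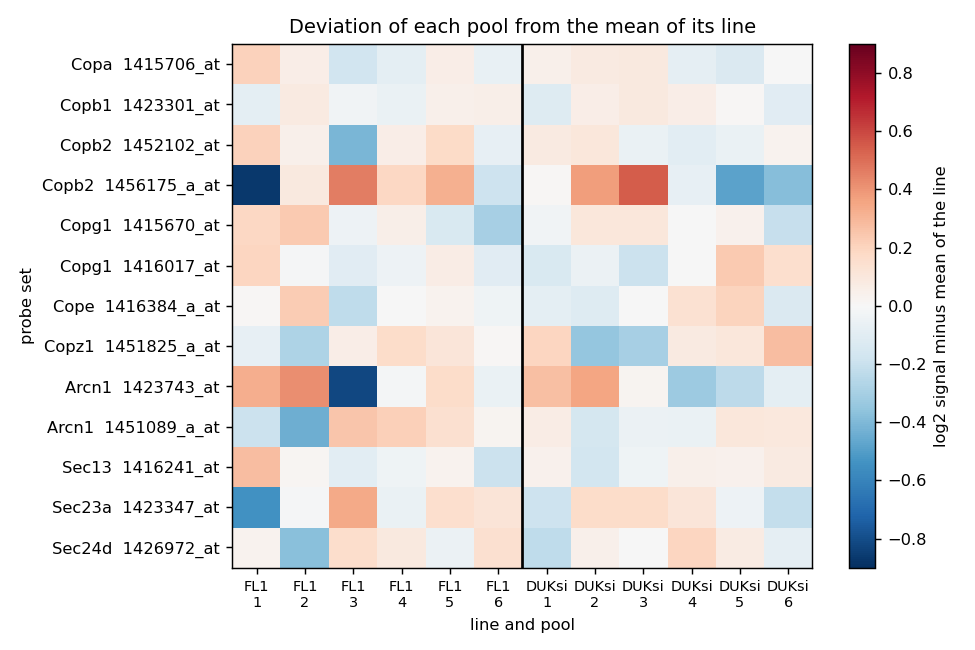
Deviation of each pool's log2 signal from the mean of its line (colour scale) for the 13 coat probe sets (rows) in 6 FL1 and 6 DUKsi pools (columns). No column is of one colour throughout, and the rows of Copb2 1456175_a_at and Arcn1 1423743_at have the deepest colours.

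The profile most like the mean deviation of the 7 COPI genes, among 10124 brighter probe sets and over the 12 pools, was that of Pef1 (r = 0.96), followed by Cnot8 (0.91), Esyt1 (0.91), Epb41l1 (0.90) and Laptm4a (0.89). These are the highest of many values and carry no test. Each COPI gene had an r of only -0.48 (Arcn1) to 0.25 (Copb2) with the mean of the other COPI genes. The mean was thus not a profile that the COPI genes shared. None of the 5 passed the test between the lines.

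Of 8 other coat subunits, 6 were measured and none passed the test of limma at an adjusted p of 0.01. Copg2 and Copz2 are paralogs of the gamma and zeta subunits. Copg2 read 521 ± 77.8 in FL1 and 523 ± 38.6 in DUKsi (SD, n = 6), a difference of -0.01. Copz2 read 437 ± 43.6 and 536 ± 36.8, a difference of -0.30 ± 0.09 (SE) with limma's adjusted p = 0.049, and 5 of 6 FL1 pools lay below all DUKsi pools. With the brightest probe sets, differences of Sec23b (-0.11 ± 0.09, SE), Sec24b (-0.03 ± 0.13) and Sec24c (0.00 ± 0.09), paralogs of the COPII inner subunits, were close to their standard errors or below them. A dimmer Sec24b probe set, 1426849_at, differed by -0.29 ± 0.14 (SE; adjusted p = 0.263). Sec31a, the cage partner of Sec13, was -0.25 ± 0.10 (SE; adjusted p = 0.188).

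Coat genes were also set beside other measured genes of the route, from the GTPases that start the coats to the folding enzymes of the endoplasmic reticulum. Of 136 route genes measured in 8 lists, the other coat subunits included, 3 rose in FL1 (2.21%) and 2 fell (1.47%), beside 2.08% and 1.65% of all genes measured. The median difference was -0.01.

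Genes that start or steer the coats included the largest of these. Sar1b, a GTPase that recruits Sec23 and Sec24, was 1592 ± 168 in FL1 and 1073 ± 61.6 in DUKsi, higher in FL1 by 0.56 ± 0.07 (SE; adjusted p = 0.000171) with no overlap, and it passed under all 26 alternatives run for it. Its paralog Sar1a differed by 0.03 ± 0.06 (SE; adjusted p = 0.866) with its brightest probe set, and by -0.13 with the other. Sec23a and Sec24d, which bind to Sar1 proteins, differed by 0.01 and 0.17 as given above. Arf5, an Arf GTPase of the Golgi, was 597 ± 170 in FL1 and 169 ± 42.2 in DUKsi, higher by 1.83 ± 0.20 (SE; adjusted p = 2.91e-05). Arf4 differed by 0.02 ± 0.06 (SE; adjusted p = 0.871) with its brightest probe set, and by -0.23, 0.19 and -0.29 with the others. Arf1, which recruits COPI, differed by 0.10 ± 0.08 (SE; adjusted p = 0.532) with its brightest probe set, and by -0.15 and -0.32 with the others.

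Along the rest of the route, Srp9, a subunit of the signal recognition particle, rose by 0.58 ± 0.09 (SE; adjusted p = 0.000828), and Hyou1, an ER chaperone, fell by 0.84 ± 0.14 (SE; adjusted p = 0.00162). Gosr1, a Golgi SNARE, fell by 0.40 ± 0.08 (SE; adjusted p = 0.00778) but passed in only 10 of 26 alternatives. In the cargo receptor, clathrin and ER stress lists none passed. There the brightest genes were Tmed9 (-0.03) and Kdelr2 (0.27, adjusted p = 0.0295), Clta (0.09) and Cltc (0.20), and Creb3l2 (0.02) and Xbp1 (-0.18).

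Counting any probe set in place of the brightest gave 5 route genes higher and 3 lower, which added Creb3, Creb3l2 and Srp14, named after their values were seen. Creb3l2, a membrane-bound factor known to activate Sec23a in cartilage, differed by -0.62 ± 0.09 (SE; adjusted p = 0.000361) with 1437396_at and by 0.02 ± 0.07 with the brighter 1452381_at. Creb3, a related factor of the ER membrane, differed by 1.26 ± 0.08 (SE; adjusted p = 1.04e-07) with 1419979_s_at and by 0.01 ± 0.06 with 1424741_s_at. In these 2 genes, as in Copb2, the probe sets gave differences of unlike size.

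**Figure D5:**
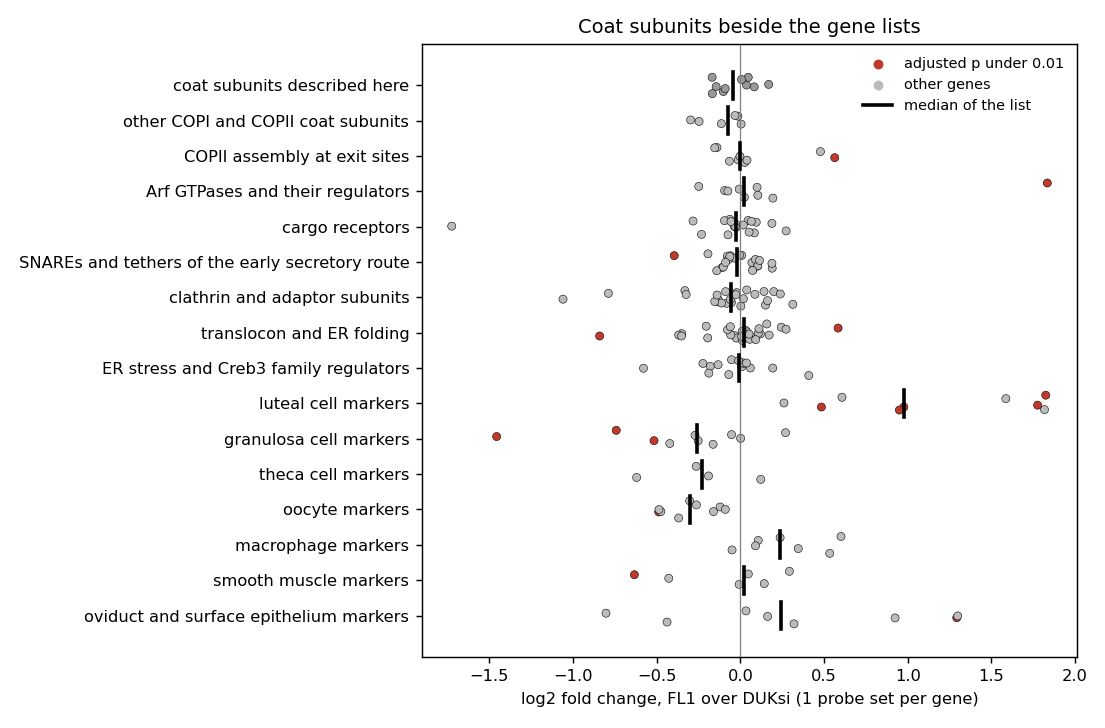
Difference between the lines (log2 fold change, FL1 over DUKsi) of the 10 coat genes, of 8 route lists and of 7 cell type marker lists, 1 point per gene with its brightest probe set, black bars for list medians and red points for an adjusted p under 0.01 (not marked for the 10 coat genes). The medians of the coat and route lists lie near 0, and that of the luteal markers is 0.98.

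Cell type markers were set beside these genes. The lists were chosen with earlier results of these data known. The paper had reported Cyp11a1, Ptgfr, Ccnd2 and Cdh2 among the differing genes. The counts are therefore a description and no test of cell composition. They stand beside 2.08% higher and 1.65% lower of all genes measured. Luteal markers rose in 5 of 9 measured genes, with Cyp11a1, the enzyme that cleaves the cholesterol side chain, higher by 0.98, Hsd17b7 by 1.78, Ptgfr by 1.82 (passing in 19 of 26 alternatives) and Idh1 by 0.95, and their summed signal was 69055 to 79169 in FL1 and 36154.5 to 54084 in DUKsi. Granulosa markers fell in 3 of 10 (Cdh2 by 1.46, Ccnd2 by 0.74 and Inhba by 0.52), with sums of 42318 to 47936 and 49966 to 57337. Differences in the granulosa list ran from -1.46 to 0.27, with a median of -0.26. Of the other lists, Zp3 fell (by 0.49) among 9 oocyte markers, whose differences ran from -0.49 to -0.09. The oocyte sums were 7987 to 10378 in FL1 and 10644 to 12417 in DUKsi. Myl9 fell among 6 smooth muscle markers, whose differences ran from -0.63 to 0.29. Upk3b rose among 8 markers of oviduct and surface epithelium, whose differences ran from -0.80 to 1.30. The sums of these 8 overlapped between the lines only through DUKsi pool 4. None of 4 theca and 7 macrophage markers passed. The coat sums overlapped between the lines while the luteal, granulosa and oocyte sums did not, and the part of cell composition in the Copb2, Sar1b and Arf5 values was not tested.

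Genes next to the coat genes were examined because the lines can differ by blocks of inherited chromosome. In the order of measured genes on the chromosome, 5 on either side of each coat gene and 100 in all, 2 rose and 2 fell: Far1 near Copb1 (0.46 ± 0.10, SE; adjusted p = 0.00681), Clec14a near Sec23a (0.64 ± 0.12; adjusted p = 0.00309), and Slc25a42 (-0.43 ± 0.09; adjusted p = 0.00553) and Comp (-1.002 ± 0.19; adjusted p = 0.00388), both near Cope. These counts stand beside 2.08% higher and 1.65% lower of all genes measured. Between gene starts, Far1 lay 702 kb from Copb1 and Clec14a 694 kb from Sec23a. Slc25a42 and Comp lay 118 and 71 kb from Cope, and neighbours in general up to 6078 kb away. Far1 passed in 14 of 26 alternatives, Slc25a42 in 13 of 26, Comp in 20 of 25 and Clec14a in 21 of 26. The largest difference among neighbours, that of Sstr1 near Sec23a (3.45 ± 0.81, SE; adjusted p = 0.0162), did not pass, and its lines overlapped. Around Copb2, 0 of 10 neighbours passed, and their median was -0.25, where the medians around the 10 coat genes ran from -0.27 (Sec24d) to 0.04 (Sec23a). Mrps22, the nearest measured gene beyond the end of Copb2, differed by -0.14 ± 0.08 (SE; adjusted p = 0.391).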

How the data were processed

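Labelled ovary RNA of FL1 and DUKsi pools was put by the authors on MOE 430A arrays. The deposited values are linear MAS5 signal intensities that the authors brought to a common mean per array. Single-probe data and detection calls were not used here, so what single probes of a set read is not shown. The samples' text gives 6 animals per pool and the methods give 5, which fits 30 animals per line. Each pool was given the mean of its 2 signals per probe set, which was put on the log2 scale, and the 6 pools of FL1 were set against the 6 of DUKsi with limma 3.58.1 in R 4.3.3 (lmFit, eBayes with a trend), with Benjamini-Hochberg adjustment over 22626 probe sets, the 64 controls left out, and no filter on low signals. A gene passed at an adjusted p under 0.01 and was read by its brightest probe set. Probe sets were named by GEO's platform annotation with symbols updated to RefSeq on GRCm38.p6, of which 20380 had 1 gene, 691 several and 1555 none. Ratios of control signals were compared by an exact permutation test.

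The coat genes and the gene lists (8 of the route, 7 of cell type markers) were chosen with earlier results of these data known. In the text stand all 10 coat genes with each probe set, up to 4 genes per list with the largest differences that passed or 2 with the highest signal where none did, the paralogs, neighbours that passed, and the 5 most alike profiles. Sar1a, Arf1, Arf4 and Mrps22 were named beside these for comparison, and Sstr1 after its value was seen. The fit was tested on simulated data. Alternatives covered the arrays used, scaling, offset, filter, test, RNA quality, left-out pools and threshold. The number of pools limits the precision.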

Additional observations from a re-analysis of the deposited data

Results flagged for a closer look

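No coat probe set had a pool set apart from the other pools of its line by Dixon's ratio, which was computed for 98 groups of 6 pools and passed its 95% critical value in 6, while chance gives about 1 in 20 groups. Among other coat subunits, Sec24b read 380.4 in DUKsi pool 5 against 491.5 to 530.5 in the other DUKsi pools, and Sec24c read 1938.05 in DUKsi pool 6 against 1295.8 to 1442.25. Arf5 read 930.2 in FL1 pool 2 (others 460.05 to 608.15) and 87.25 in DUKsi pool 4 (others 168.55 to 203.4). Hyou1 read 1445.8 in FL1 pool 3 (others 616.15 to 900.7), the pool in which the beta-actin ratio was 2.45 (others 1.32 to 1.74).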

How the results depend on the processing

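Recomputing the fold changes of the 13 coat probe sets under each alternative gave 299 values, of which 292 differed from the reported value by less than the spread between pools and 7 by more. Leaving out a single pool could not move a value by as much as that spread. The filter and the pool number as a replicate block changed no fold change. The count of 292 is thus no measure of how stable the values were. Copb2 1456175_a_at ranged from -3.45 to -2.48. Its distance from 1452102_at was 2.38 with the 20th percentile added before log2, 3.57 with the beta-actin ratio as a covariate, and 2.82 to 3.20 without single pools. The median of the 10 coat genes was 0.0449 with arrays scaled to the same median, 0.0231 with the beta-actin covariate, and -0.06 to -0.02 without single pools. Route genes past the threshold, 5 (3 higher, 2 lower), were 8 with the 24 arrays and a pool block, 8 with median scaling (7 higher, 1 lower), 10 with the beta-actin covariate (4 higher, 6 lower), 11 at an adjusted p of 0.05 and 2 with a ratio of at least 1.5, 8 with any probe set, and 4 to 6 without single pools. Neighbours, 4, were 2 and 1 with the first and second arrays only, 8 with the 24 arrays, 1 without the trend, 0 by the methods' t-test on linear signals, 7 at 0.05, 2 with a ratio of at least 1.5, and 1 to 5 without single pools. Markers, 11, were 20 with the 24 arrays, 18 without FL1 pool 3 and DUKsi pool 4, 20 at 0.05, and 9 to 14 without single pools. Pool numbers did not pair the lines (r of deviations -0.26 to 0.17, 0 of 6 FL1 pools closest to their own number). With the pool number as a replicate block, 1 neighbour passed. The causes were not tested. Protein identity between paralogs was planned and not run.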
